A study of Mus musculus with 9 samples.

Results

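The 10 autosomal genes described here had lower RNA in ketolysis-deficient CD8+ T cells: Srcin1, Erbb2, Rhpn1, Top1mt, Fam187b, Pld4, Cfap74, 5830444B04Rik, Borcs7 and As3mt. They are 10 of the 55471 genes counted in each library, and were chosen by their counts, as transcripts about 1.6-fold or more lower in the deficient cells, so that difference is a description and carries no test. The counts come from RNA sequencing of mouse CD8+ cells bearing OT-I, a transgenic T cell receptor for an ovalbumin peptide. The control group, Control (Bdh1-WT;shCtrl), had 4 libraries and carried a short hairpin RNA whose target, firefly luciferase, is not a mouse gene. The other group, DKO (Bdh1-KO;shOxct1), had 5 libraries and received a hairpin against Oxct1. All cells were activated for 24 h with antibodies to CD3ε and CD28 and 50 U/ml IL-2, transduced, kept in IL-2 for 2 further days, sorted for the Ametrine reporter and given to C57BL/6 (CD45.1) mice, which were infected 1 day later with LmOVA, a Listeria strain that carries ovalbumin. CD45.2, Ametrine-positive cells were sorted on day 7 of infection. The knockout and the hairpin were present together in every DKO library, so what belongs to the knockout line, its strain background included, and what belongs to the hairpin cannot be told apart. The labels used here give no strain for the Bdh1-KO line, and do not say whether replicates came from separate cultures or mice, so p-values measure the spread between these libraries, which may be technical.

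The genes belong to no single pathway. Erbb2 encodes a receptor tyrosine kinase that works by pairing with other ErbB receptors, and Srcin1 encodes p140Cap, an adaptor that restrains the kinase Src. Top1mt encodes the mitochondrial type I topoisomerase, Pld4 an endolysosomal exonuclease known from B cells and dendritic cells, and Cfap74 a protein of motile cilia. Borcs7 is a subunit of BORC, the complex that moves lysosomes along microtubules, and As3mt methylates arsenic. The count columns and the neighbouring genes were compared to ask how local each difference was.

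Each library held 45205993 to 59853080 counts in genes, and 67.0 to 74.0% of reads. In CPM (counts scaled to a common library total), Oxct1 was at 63.1 ± 5.73 in control (n = 4, SD) against 5.16 ± 0.369 in DKO (n = 5, SD), and Bdh1 at 30.5 ± 4.16 and 10.6 ± 1.24 CPM, without overlap, so neither gene went against the labels. The 8 CD8 T cell markers examined summed to 8575 to 11358 CPM in control and 8411 to 8974 CPM in DKO, and each exceeded 1 CPM. Control replicate 1 stood apart from the other libraries: 16.7% of its reads were unmapped and 67.0% lay in genes, against 10.3 to 12.3% and 71.8 to 74.0% in the other 8. Its counts differed from those of the other controls by a chi-square per degree of freedom of 170 to 201, against 25 to 42.3 among those controls. It was the highest control library for Top1mt, Fam187b, Borcs7 and As3mt, whose fitted log2 fold changes were -0.72, -2.87, -0.90 and -0.89 with it and -0.61, -2.67, -0.75 and -0.83 without it. It was the lowest for Erbb2, Rhpn1, Pld4 and 5830444B04Rik, which stood at -2.68, -2.51, -1.95 and -1.67 with it and -2.93, -2.71, -2.06 and -1.75 without it. Xist, the RNA of the inactive X chromosome, also differed between the groups, at 0 to 0.351 CPM in control and 11.4 to 23.6 CPM in DKO. What goes with this difference in the 10 genes was not tested.

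Of 14918 genes tested with edgeR's quasi-likelihood test, 225 (1.51%) were lower in DKO at an adjusted p under 0.05 and 785 (5.26%) were lower by a fitted 1.6-fold or more. In all, 422 (2.83%) passed, 197 (1.32%) of them higher. On autosomes 116 genes other than the 10 met both criteria. The 10 were chosen on this contrast and are given no call from it. They were not simply the deepest decreases: by fitted fold change among autosomal genes they ranked 3 (Srcin1), 5 (Fam187b), 6 (Erbb2), 10 (Rhpn1), 13 (Cfap74), 26 (Pld4), 54 (5830444B04Rik), 404 (Borcs7), 425 (As3mt) and 667 (Top1mt). Closest to the limit was Top1mt, at 1.65-fold. Beyond the 10, Mgst2 lay just inside it at 1.602-fold and Trub1 just outside at 1.598-fold. In all 10 genes every DKO library lay below every control library, a pattern that 4.09% of tested genes showed and from which nothing is read here, since the contrast chose the genes. The median fitted log2 fold change was -2.09 for the 10 and -0.01 for all tested genes.

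**Figure D1:**
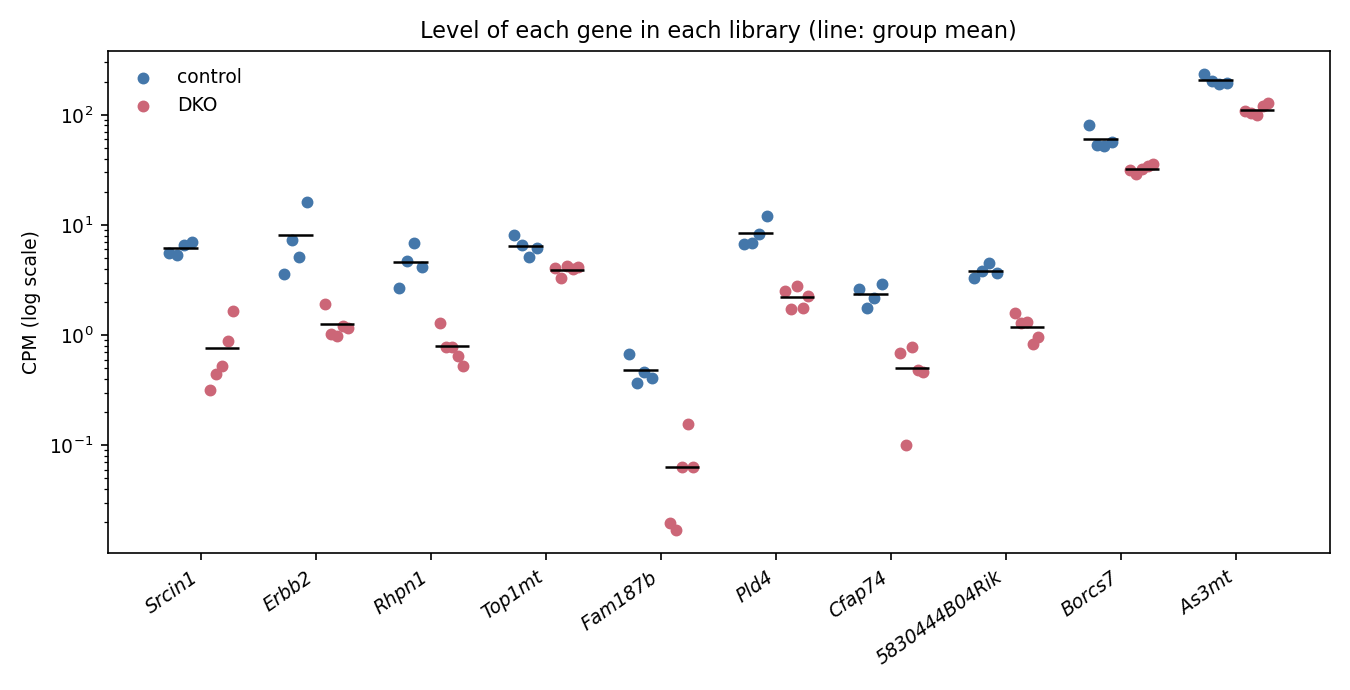
CPM of each gene in each library on a log axis, with control libraries in blue (n = 4), DKO libraries in red (n = 5) and the group mean as a line. No gene has a DKO library as high as its lowest control library; As3mt and Borcs7 lie far above the other genes, and Fam187b lies lowest.

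Not all were low-level transcripts. Per kilobase of exon, the control mean ran from 0.101 CPM for Fam187b through 0.238 for Cfap74, 0.640 for Srcin1, 0.707 for 5830444B04Rik, 1.07 for Rhpn1, 1.54 for Erbb2, 2.45 for Pld4 and 3.17 for Top1mt to 27.9 for Borcs7 and 64.1 for As3mt. Before scaling by length, 93.6% of tested genes had a lower control CPM than As3mt, and 13.5% had a lower one than Fam187b. The genes lay on 6 chromosomes, and 3 pairs were close neighbours: 5830444B04Rik and Cfap74 overlap on chromosome 4, Top1mt and Rhpn1 lie 25.5 kb apart on chromosome 15, and Borcs7 and As3mt lie 4.08 kb apart on chromosome 19. Srcin1 and Erbb2 share chromosome 11 at a distance of 0.836 Mb. None lay on chromosome 16 with Bdh1, and the chromosome 15 pair was 71.5 Mb from Oxct1.

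Srcin1 (ENSMUSG00000038453.17) is a protein-coding gene on the minus strand of chromosome 11, at 97509340 to 97576186 in GRCm38. The control libraries 1 to 4 had 5.55, 5.34, 6.54 and 7.03 CPM, and the DKO libraries 1 to 5 had 0.316, 0.440, 0.525, 0.876 and 1.65 CPM. The control libraries were tightly grouped, whereas the DKO libraries spanned a 5.22-fold range with replicate 5 highest. The means were 6.12 ± 0.805 and 0.762 ± 0.538 CPM, or 12.5% of control, and the fitted log2 fold change was -3.01 (SE 0.39). The count rested on 16 to 400 reads a library. The 2 strand columns summed exactly to the unstranded count, so no reads were left out for a gene on the opposite strand. Reads shared with a gene on the same strand would not show in that sum. Of the markers of neurons, in which p140Cap is best known, Snap25 had no counts and Rbfox3 had 1 in all libraries, while Tubb3 was at 4.59 ± 0.602 and 4.92 ± 1.70 CPM and Syp at 1.31 ± 0.206 and 1.33 ± 0.486 CPM. The 6-gene neuronal list summed to 5.20 to 7.45 CPM in control and 4.76 to 9.48 CPM in DKO (exact permutation test, two-sided, p = 0.683).

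Over the 9 libraries, the 5 autosomal genes outside the 10 whose centred log2 CPM profile lay nearest to that of Srcin1 were Oxct1 (root mean square difference 0.604 on the log2 scale), Fcgr2b (0.663), Gm2788 (0.715), Gm10522 (0.721) and I830127L07Rik (0.736). Pld4 was the nearest of the other 9 described here (0.726) and Top1mt the farthest (1.16). The comparison is led by the difference between groups and is a description.

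Erbb2 (ENSMUSG00000062312.5) lies on the plus strand of chromosome 11, at 98412470 to 98437716. The control libraries had 3.61, 7.25, 5.11 and 16.2 CPM, and the DKO libraries 1.92, 1.02, 0.987, 1.21 and 1.16 CPM. Here the control group was the uneven one, with a 4.50-fold range that replicate 4 set. The means were 8.05 ± 5.65 and 1.26 ± 0.380 CPM, with a fitted log2 fold change of -2.68 (SE 0.40). Without control replicate 4 the fitted difference was 4.23-fold in place of 6.40-fold. Of the epithelial markers, Krt8 and Krt19 had no counts in any library, and the 6-gene list summed to 0.111 to 2.76 CPM in control and 1.21 to 1.52 CPM in DKO (exact permutation test, two-sided, p = 0.444).

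Among the receptors that pair with Erbb2, Egfr and Erbb4 had no counts in any library. Erbb3 was at 17.7 ± 5.03 CPM in control against 24.5 ± 2.22 CPM in DKO (edgeR adjusted p = 0.226, with 0.47 as log2 fold change and 0.18 as SE). The 9 partner genes of the ErbB list, of which 6 were tested, included 0 past the threshold in edgeR, DESeq2 or limma-voom, and 3 had an unadjusted p under 0.05. The 7 partners of the Src list also included none in these 3 tests, and 0 had an unadjusted p under 0.05. Here and below, the share of all tested genes at that unadjusted limit is not given, so nothing is read from these counts.

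The interval between Srcin1 and Erbb2 held 25 tested genes with a median log2 fold change of -0.06. Of these, 2 fell past the threshold. Arl5c, which encodes a small GTPase of the ARF-like family, fell from 161.6 ± 21.5 to 94.0 ± 8.99 CPM (edgeR adjusted p = 0.00361, with -0.78 as log2 fold change and 0.10 as SE) at 413 kb from Srcin1. B230217C12Rik fell from 1.37 ± 0.436 to 0.561 ± 0.109 CPM (edgeR adjusted p = 0.0368, with -1.28 as log2 fold change and 0.28 as SE), a call lost without any 1 library other than control replicate 4. The genes next to Srcin1 did not pass: Arhgap23 at 6.94 kb had a log2 fold change of 1.17 (adjusted p = 0.403, edgeR) and Epop at 51.2 kb of -0.42 (adjusted p = 0.288, edgeR). Erbb2 shares 9 exonic bases with Mien1 on the other strand, which stood at 22.1 ± 4.58 and 19.4 ± 2.12 CPM (adjusted p = 0.561, edgeR), and Pgap3 at 11.98 kb on the other side had a log2 fold change of -0.09 (adjusted p = 0.861, edgeR). A further 98.6 ± 24.5 and 87.6 ± 5.20 CPM at Mien1 were left out of unstranded counting. Gm12352 at 0.32 kb, Grb7 at 8.68 kb and Gm25106 at 35.96 kb from Erbb2 had log2 fold changes of -0.82, -0.68 and -0.76 (adjusted p = 0.263, 0.260 and 0.319, edgeR). Ikzf3 at 27.2 kb and Stard3 at 31.4 kb had -0.003 and 0.05 (adjusted p = 0.992 and 0.755, edgeR).

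Rhpn1 (ENSMUSG00000022580.13, plus strand, 75704280 to 75715485) and Top1mt (ENSMUSG00000000934.9, minus strand, 75657035 to 75678800) stand head to head on chromosome 15, with no annotated gene between them. Rhpn1 had 2.68, 4.71, 6.88 and 4.11 CPM in the control libraries and 1.28, 0.779, 0.777, 0.643 and 0.529 CPM in the DKO libraries. Top1mt had 8.15, 6.58, 5.08 and 6.12 CPM in control and 4.05, 3.27, 4.22, 3.95 and 4.15 CPM in DKO. Control replicate 1 was lowest of its group for Rhpn1 and highest for Top1mt, and its other control libraries were also ordered differently for the 2 genes. The fitted log2 fold changes also differed in size, at -2.51 (SE 0.31) for Rhpn1 and -0.72 (SE 0.16) for Top1mt.

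Around this pair none of the 19 tested neighbours passed the threshold in edgeR, DESeq2 or limma-voom, and 2 had an unadjusted p under 0.05. The nearest on either side, 2810039B14Rik at 3.39 kb and Mafa at 30.0 kb, had log2 fold changes of -0.15 and -0.16 (adjusted p = 0.756 and 0.813, edgeR). Top1mt overlaps the antisense gene Gm15945 by 95 exonic bases. Reads there, which unstranded counting leaves out, were at 0.947 ± 0.0688 CPM in control against 0.655 ± 0.115 CPM in DKO, in addition to the 6.48 ± 1.27 and 3.93 ± 0.383 CPM counted for Top1mt. Of the paralogs, the nuclear topoisomerase gene Top1 was at 116.9 ± 6.92 and 116.2 ± 7.05 CPM (adjusted p = 0.970, edgeR). Top2a, which acts in dividing cells, was higher in DKO, at 48.9 ± 13.8 and 104.9 ± 31.8 CPM (edgeR adjusted p = 0.0346), a call lost on leaving out control replicate 3 or 4, or DKO replicate 1, 3, 4 or 5. Rhpn2, the paralog of Rhpn1, was at 0.0273 ± 0.0419 and 0.240 ± 0.145 CPM and was not tested for low counts.

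Fam187b (ENSMUSG00000046826.7) lies on the plus strand of chromosome 7, at 30973790 to 30989726, 0.325 kb from Lsr. Its counts were 33, 21, 21 and 23 in control and 1, 1, 3, 8 and 3 in DKO. In CPM these were 0.681, 0.368, 0.464 and 0.404 in control and 0.0198, 0.0169, 0.0630, 0.156 and 0.0635 in DKO. The groups did not overlap, but the DKO level rests on 16 reads in all, 8 of them in replicate 4. The fitted log2 fold change was -2.87 (SE 0.56), and without DKO replicate 4 the fitted difference was 11.4-fold in place of 7.33-fold.

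Lsr itself, a tight junction and lipoprotein receptor gene, was at 1.06 ± 0.356 and 0.755 ± 0.272 CPM (edgeR adjusted p = 0.524, with -0.49 as log2 fold change), and Fxyd5 on the other side had a log2 fold change of -0.11 (adjusted p = 0.682, edgeR). Of 28 tested neighbours 1 fell past the threshold. This was Gm10640 at 165.9 kb, from 2.59 ± 0.810 to 1.13 ± 0.194 CPM (edgeR adjusted p = 0.0257), a call lost on leaving out control replicate 2 or 4, or DKO replicate 1, 3, 4 or 5.

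Pld4 (ENSMUSG00000052160.7) lies on the plus strand of chromosome 12, at 112760655 to 112768990. The control libraries had 6.68, 6.83, 8.29 and 12.2 CPM and the DKO libraries 2.53, 1.71, 2.77, 1.75 and 2.24 CPM. The lowest control library was 2.41 times the highest DKO library. The means were 8.49 ± 2.55 and 2.20 ± 0.469 CPM, or 25.9% of control, with a fitted log2 fold change of -1.95 (SE 0.22). Of its 22 tested neighbours, 0 passed the threshold in edgeR, against 3 in DESeq2, 2 in limma-voom and 5 at an unadjusted p under 0.05. Over all genes tested, DESeq2 called 8.41% and limma-voom 6.68%. The median log2 fold change of these neighbours was 0.13. The closest, Cep170b and Clba1, had log2 fold changes of 0.13 and 0.27 (adjusted p = 0.878 and 0.803, edgeR).

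Markers of other cells known for Pld4 were read beside it. The 8-gene myeloid list summed to 160.0 to 196.7 CPM in control and 112.9 to 121.5 CPM in DKO, without overlap (exact permutation test, two-sided, p = 0.0159, the smallest that relabelling 9 libraries allows; adjusted p = 0.0952 over 6 lists). All 8 were tested and 2 fell past the threshold in edgeR, with 4 called in DESeq2 and 3 in limma-voom. Over all genes tested, the shares called were 2.83, 8.41 and 6.68%. The 2 in edgeR were Ctss, a lysosomal protease gene, from 81.1 ± 8.21 to 51.2 ± 5.83 CPM (adjusted p = 0.00734, edgeR), and Cd68 from 29.1 ± 4.97 to 16.8 ± 2.51 CPM (adjusted p = 0.0138, edgeR). The other 6 did not pass. Among these Itgam, the second most abundant of the list, was at 58.9 ± 19.1 and 38.1 ± 5.39 CPM (edgeR adjusted p = 0.148, with -0.63 as log2 fold change). Also not past the threshold were Lyz2, at 2.43 ± 1.08 and 5.84 ± 4.39 CPM (adjusted p = 0.206, edgeR), and Csf1r, at 1.84 ± 1.14 and 2.37 ± 1.95 CPM (adjusted p = 0.804, edgeR). The remaining Mpeg1, Adgre1 and Cd14 had log2 fold changes of 1.13, -0.04 and -0.105 (adjusted p = 0.558, 0.986 and 0.925, edgeR). Ctss, Itgam and Cd68 thus made up most of the myeloid sum. The B cell list summed to 179.5 to 264.6 CPM in control and 187.3 to 210.0 CPM in DKO (exact permutation test, p = 0.349), led by Ighm, while Pax5 had no counts. The plasmacytoid dendritic cell list summed to 69.8 to 96.3 and 64.1 to 75.6 CPM (exact permutation test, p = 0.111), led by Bst2, and its defining gene Siglech had 2 counts in all. The part of myeloid RNA in the level of Pld4 was not tested, and in sorted bulk samples fewer cells of a type and less RNA per cell cannot be told apart. Pld3, the paralog of Pld4, was at 367.4 ± 35.3 and 393.6 ± 9.23 CPM (edgeR adjusted p = 0.577, with 0.10 as log2 fold change). Of the CD8 T cell markers 1 of 8 passed the threshold, Cd8b1, from 2245 ± 279.7 to 1701 ± 128.6 CPM (edgeR adjusted p = 0.0428, with -0.40 as log2 fold change), a call lost without any 1 library other than control replicate 1.

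Cfap74 (ENSMUSG00000078490.10, plus strand, 155409190 to 155466823) and the noncoding transcript 5830444B04Rik (ENSMUSG00000084803.8, minus strand, 155398763 to 155421704) overlap on opposite strands of chromosome 4. Cfap74 had 2.60, 1.77, 2.19 and 2.90 CPM in control and 0.692, 0.102, 0.777, 0.487 and 0.465 CPM in DKO. 5830444B04Rik had 3.32, 3.82, 4.49 and 3.67 CPM in control and 1.601, 1.29, 1.30, 0.838 and 0.952 CPM in DKO. Both were lower in all DKO libraries, and replicate 2, with 6 reads, was lowest for Cfap74 but not for 5830444B04Rik. The fitted log2 fold changes were -2.23 (SE 0.42) and -1.67 (SE 0.22).

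Unstranded counting leaves out reads that 2 overlapping genes share, and the strand columns show how many there were. The strand columns added 602 reads to the 491 counted for Cfap74 in control and 275 to the 125 counted in DKO; for 5830444B04Rik they added 606 to 791 and 286 to 307. The additions were near-equal for the 2 genes, whose overlap in GENCODE M21 is 453 exonic bases. These shared reads were at 2.95 ± 0.590 CPM in control against 1.07 ± 0.232 CPM in DKO at Cfap74, or 36.4% of control, against 21.3% for reads of Cfap74 alone and 31.3% for reads of 5830444B04Rik alone. Each of the 3 kinds of read was lower in every DKO library than in any control library. All 3 are built from the counts that chose the genes, so this is a description and carries no test. The library preparation does not mark strand, so the shared reads cannot be given to either gene.

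**Figure D2:**
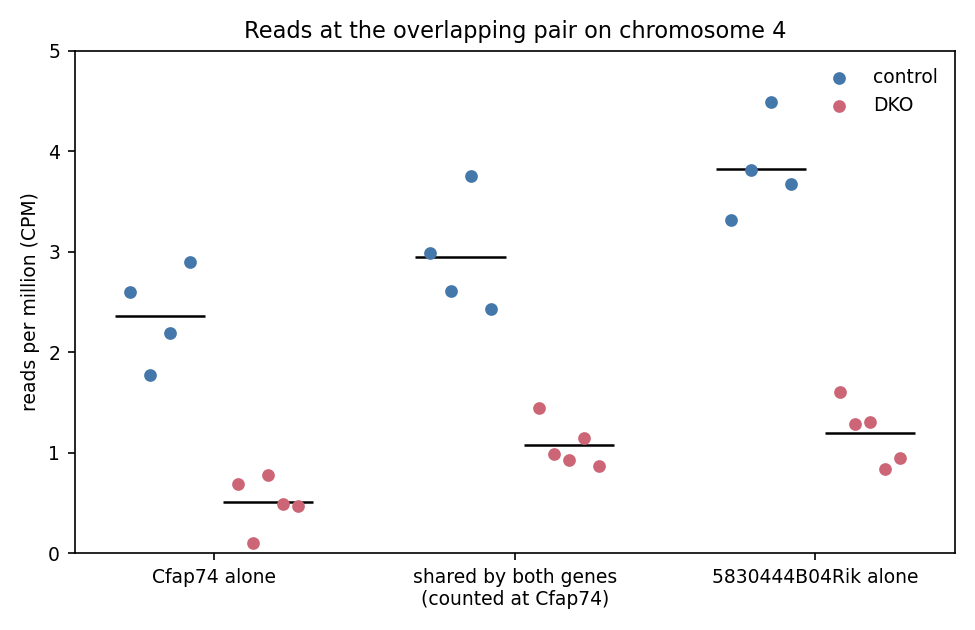
CPM in each library at the chromosome 4 pair: reads of Cfap74 alone, reads left out of unstranded counting because both genes cover them, and reads of 5830444B04Rik alone (control blue, n = 4; DKO red, n = 5; line, mean). All 3 kinds are lower in DKO without overlap, with means of 2.36 and 0.505, 2.95 and 1.07, and 3.82 and 1.196 CPM. The counts that chose both genes make up these reads.

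Next to this pair, 0.650 kb from 5830444B04Rik, lies Gabrd, a GABA receptor subunit gene, with 54, 12, 10 and 26 counts in control and 3, 7, 5, 2 and 0 counts in DKO. Its log2 fold change was -2.89 (SE 0.72) and did not pass the threshold (adjusted p = 0.0587, edgeR). On the other side Gnb1 was at 324.6 ± 31.4 and 346.5 ± 10.97 CPM (adjusted p = 0.607, edgeR). None of the 35 tested neighbours passed in edgeR, against 1 each in DESeq2 and limma-voom (which called 8.41 and 6.68% of all genes they tested) and 7 at an unadjusted p under 0.05. Of the other 7 genes of cilia and flagella examined, 6 were tested and none passed in edgeR, DESeq2 or limma-voom, with 0 at an unadjusted p under 0.05.

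Borcs7 (ENSMUSG00000062376.7, 46689906 to 46703382) and As3mt (ENSMUSG00000003559.8, 46707458 to 46741099) follow each other on the plus strand of chromosome 19. Their start regions are shown because the pair had similar fold changes from separate starts. The windows cover 250 bases before to 50 after each start, from RefSeq on GRCm38.p6, plus strand, at chr19:46689656-46689955 for Borcs7 and chr19:46707208-46707507 for As3mt, with capitals on the CCAAT word or its reverse complement ATTGG.
Borcs7: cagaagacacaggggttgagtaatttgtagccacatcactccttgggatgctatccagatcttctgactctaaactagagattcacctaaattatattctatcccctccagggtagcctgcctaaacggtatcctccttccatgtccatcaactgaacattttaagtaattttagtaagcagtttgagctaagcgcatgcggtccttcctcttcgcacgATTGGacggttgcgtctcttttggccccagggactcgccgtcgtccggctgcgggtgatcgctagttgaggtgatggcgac
As3mt: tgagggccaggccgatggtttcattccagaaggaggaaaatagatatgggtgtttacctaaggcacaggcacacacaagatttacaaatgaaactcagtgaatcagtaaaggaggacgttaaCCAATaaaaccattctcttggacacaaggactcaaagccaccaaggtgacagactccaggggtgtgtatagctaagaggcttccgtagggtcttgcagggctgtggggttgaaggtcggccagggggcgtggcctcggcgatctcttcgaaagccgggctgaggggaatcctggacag
Each window held the CCAAT word once on either strand, as did 37.4% of all 32851 windows at least once. Neither held GGGCGG (35.7% of windows), TATAAA (13.6%), CACGTG (7.15%) or TGACGTCA (1.79%) on either strand. Their GC content was 49.3% for Borcs7 and 52.0% for As3mt. Windows were found for 6 of the 10 genes.

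Borcs7 had 80.7, 53.4, 52.0 and 56.5 CPM in the control libraries and 31.4, 28.9, 32.0, 34.4 and 35.4 CPM in the DKO libraries. As3mt had 236.4, 200.6, 191.0 and 195.6 CPM in control and 107.3, 103.7, 99.3, 119.5 and 126.8 CPM in DKO. Control replicate 1 was highest for both genes and control replicate 3 lowest for both, and in DKO replicates 4 and 5 were the highest for both. The means were 60.7 ± 13.5 and 32.4 ± 2.57 CPM for Borcs7 and 205.9 ± 20.7 and 111.3 ± 11.4 CPM for As3mt, or 53.5 and 54.1% of control. The fitted log2 fold changes were -0.90 (SE 0.13) and -0.89 (SE 0.10), on 1522 or more reads in any library for Borcs7 and 4728 or more for As3mt.

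The nearest tested protein-coding gene upstream fell as well. Cyp17a1, which encodes a steroid hydroxylase of androgen and cortisol synthesis, lies on the minus strand at 46667165 to 46673172, 16.7 kb from Borcs7. It had 9.09, 10.2, 8.09 and 16.9 CPM in control and 2.57, 4.25, 3.45, 3.27 and 2.69 CPM in DKO. Every DKO library lay below every control library, and control replicate 4 was the highest. The fitted log2 fold change was -1.77 (SE 0.23) with an edgeR adjusted p = 0.00322, and it kept the threshold without each library. Between Cyp17a1 and Borcs7 lies Gm6967, with means of 1.44 ± 0.371 and 0.567 ± 0.391 CPM, which did not pass (edgeR adjusted p = 0.238, with -1.33 as log2 fold change and 0.52 as SE).

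The next genes on either side did not pass. On the far side of Cyp17a1, AC156982.1, 23.8 kb from Borcs7, was at 0.169 ± 0.0285 and 0.307 ± 0.299 CPM (edgeR adjusted p = 0.607, with 0.85 as log2 fold change). Beyond it Wbp1l, 32.5 kb from Borcs7, was at 179.2 and 198.1 CPM (edgeR adjusted p = 0.717, with 0.14 as log2 fold change), and Cnnm2, 20.5 kb beyond As3mt, was at 5.65 ± 2.16 and 6.81 ± 0.904 CPM (edgeR adjusted p = 0.659, with 0.27 as log2 fold change). Cyp17a1 was the 1 gene past the threshold among 24 tested neighbours, whose median log2 fold change was 0.05; DESeq2 and limma-voom called 3 each, against 8.41 and 6.68% of all genes they tested.

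No other subunit of BORC passed the threshold in edgeR. The list held 7 other subunits (Bloc1s1, Bloc1s2, Snapin, Borcs5, Borcs6, Borcs8 and Kxd1) and the GTPases Arl8a and Arl8b that BORC recruits to lysosomes. All 9 were tested and 0 passed in edgeR, against 1 each in DESeq2 and limma-voom (which called 8.41 and 6.68% of all genes they tested) and 3 at an unadjusted p under 0.05. The subunits had log2 fold changes from -0.23 (Borcs8, 23.9 ± 2.10 and 20.4 ± 1.78 CPM, adjusted p = 0.304, edgeR) to 0.04 (Bloc1s1, 1.73 ± 0.461 and 1.78 ± 0.254 CPM, adjusted p = 0.957, edgeR). Arl8a was at 91.8 ± 4.50 and 110.9 ± 4.52 CPM (edgeR adjusted p = 0.0748, with 0.27 as log2 fold change and 0.07 as SE). In the list of arsenic methylation, read for As3mt, all 6 genes were tested, with 5 lower and 1 higher in DKO. Of these 0 passed in edgeR or limma-voom, against 1 in DESeq2. Gsto1 was at 26.2 ± 2.11 and 20.4 ± 2.13 CPM (edgeR adjusted p = 0.102, with -0.36 as log2 fold change and 0.10 as SE). Over all partner and paralog lists, 1 of 46 tested genes passed the threshold in edgeR, the Top2a already given, and the median log2 fold change was 0.01.

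Across all loci, 186 other genes within 500 kb were tested, and 5 passed the threshold in edgeR, or 2.69% against 2.83% of all tested genes. Of these, 4 were lower in DKO (2.15%, against 1.51% of all), namely Cyp17a1, Gm10640, B230217C12Rik and Arl5c, and Cdc6, a replication licensing gene 470 kb from Erbb2, was higher, at 2.55 ± 0.805 and 9.03 ± 4.99 CPM (edgeR adjusted p = 0.0258, with 1.83 as log2 fold change and 0.37 as SE). Cdc6 lost the threshold without control replicate 4 or DKO replicates 1 or 3. The direction was even, with 93 neighbours lower and 93 higher and a median log2 fold change of -0.00026. Within 500 kb these shares lie near the background. The count was 8 without control replicate 1 (4.93% of all genes then passed), 3 without control replicate 4 (1.23%), DKO replicate 4 (1.5%) or DKO replicate 5 (1.54%), and 2 without DKO replicates 1 or 3 (1.22% for each).

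**Figure D3:**
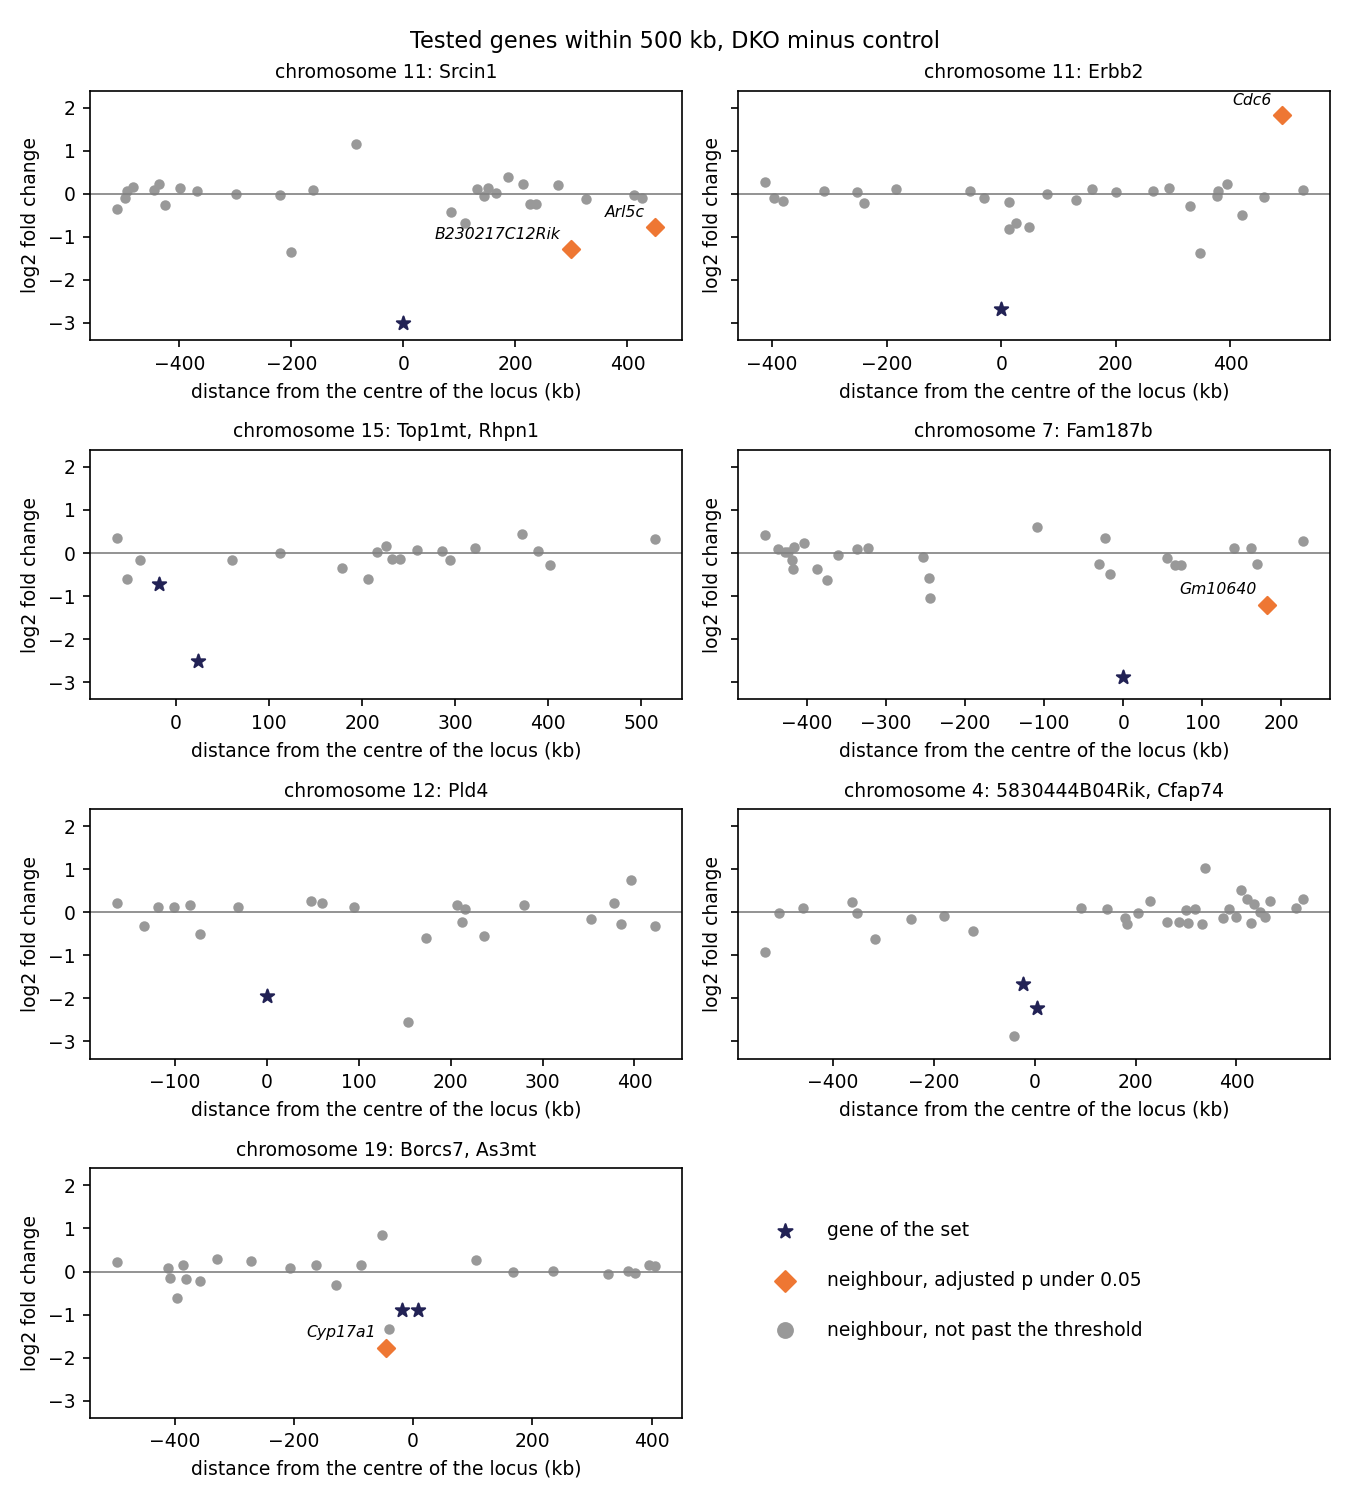
Fitted log2 fold change (DKO minus control) of every tested gene within 500 kb, by distance of its midpoint from the centre of each of 7 loci; stars are the 10 genes, diamonds are neighbours with an adjusted p under 0.05 in edgeR and grey points the others. Most neighbours lie near 0, and Cyp17a1 is the diamond beside Borcs7 and As3mt.

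The count columns were then compared for the 10 genes. With the strand columns summed, the fitted log2 fold change moved by at most 0.0439 for Srcin1, Erbb2, Rhpn1, Top1mt, Pld4, Borcs7 and As3mt. It moved from -2.23 to -1.75 (SE 0.20) for Cfap74, from -1.67 to -1.55 (SE 0.17) for 5830444B04Rik and from -2.87 to -2.40 (SE 0.48) for Fam187b. The strand columns hold different reads of the same libraries, so they repeat the counting and are not replicates. Fitted on each strand column alone, the 10 genes remained lower wherever a fit was possible, a description since counts from the same reads chose the genes. The widest gap was that of Rhpn1, at -2.78 (SE 0.31) and -2.29 (SE 0.33), and Fam187b had too few reads for a fit in the first column.

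The division of reads between the strand columns was tested as well, since it did not enter the choice of genes. The library preparation does not mark strand, and the first column held 49.9 to 50.1% of strand-column counts in each library. The share thus cannot show which strand was transcribed, and nothing is concluded from it. For Rhpn1 the first column held 51.8 ± 3.84% of reads for control (SD, n = 4) against 42.0 ± 3.61% for DKO (SD, n = 5; exact permutation test, two-sided, p = 0.0159, adjusted p = 0.159 over 10 genes). For Fam187b the ratio of both strand columns together to the unstranded count was 1.02 ± 0.0435 in control and 1.78 ± 0.744 in DKO, on 16 unstranded reads in DKO. This ratio is built from the counts that chose the genes, and a low unstranded count raises it, so it is a description. None of the 10 genes passed after adjustment for the share in the first column, and the smallest p that relabelling allows can pass over 10 genes only if several genes reach it.

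**Figure D4:**
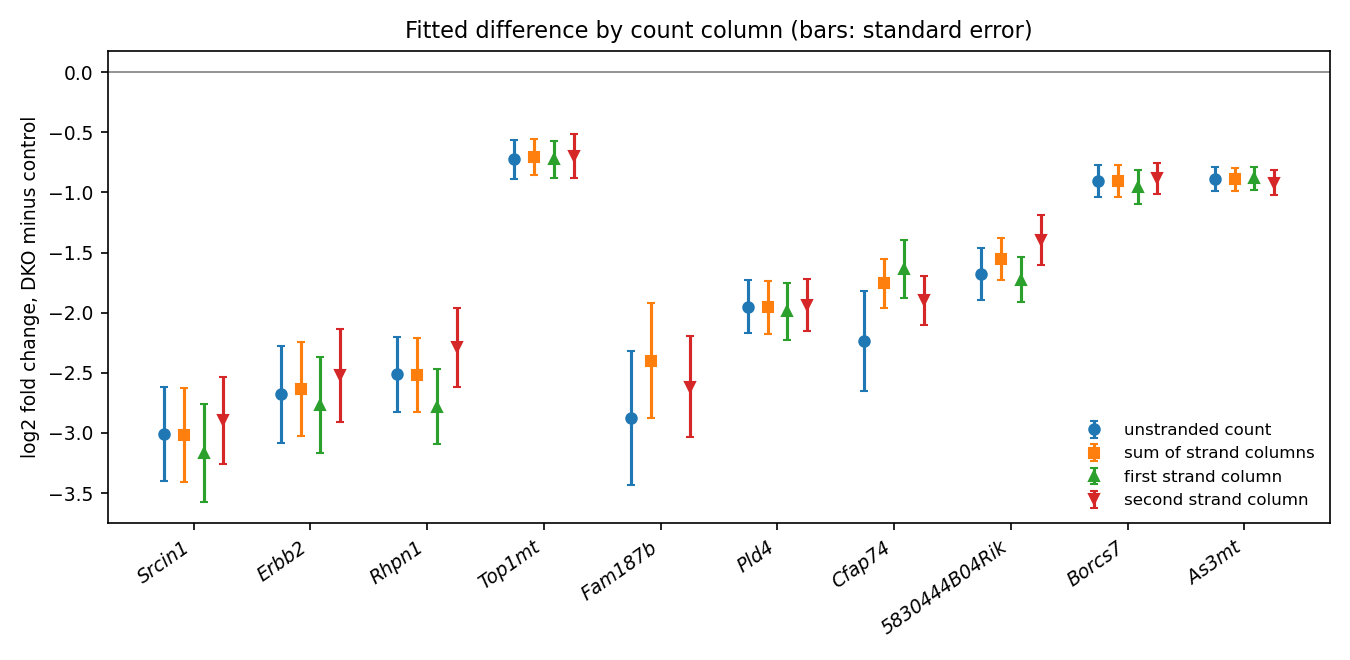
Fitted log2 fold change (DKO minus control) of the 10 genes from the unstranded count, the sum of the strand columns and each strand column alone, with bars for the standard error. All values lie below 0, and Cfap74 and Fam187b move most between the unstranded count (-2.23 and -2.87) and the sum (-1.75 and -2.40).

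Transcripts reported to differ between C57BL/6 substrains were read in the same fit, as the labels give no strain for the knockout. Nnt, a mitochondrial transhydrogenase gene that C57BL/6J mice carry in a defective form, was at 0.926 ± 0.309 CPM in control against 1.21 ± 0.180 CPM in DKO (edgeR adjusted p = 0.539, with 0.38 as log2 fold change and 0.27 as SE). Wdfy1 and Ide had log2 fold changes of -0.03 and 0.04 (adjusted p = 0.923 and 0.919, edgeR), and Entpd4 had no counts. Of the 3 tested genes 0 passed in edgeR, DESeq2 or limma-voom, and 0 had an unadjusted p under 0.05. This list of 4 genes does not cover other strain differences, and a strain difference linked to the knockout line was not tested beyond it.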

How the data were processed

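Libraries of polyA RNA (4 control, 5 DKO) were made with the Takara Smartseq v4 and Nextera Flex kits, per the labels. The authors deposited raw read counts for each gene, once without regard to strand and once per strand, laid out as STAR writes them. Trim Galore 0.6.0, STAR 2.7.8a and mm10 are named in the submitters' processing notes, and the annotation is not given in the sources used here. Summary lines with no gene were dropped: unmapped 10.3 to 16.7%, multimapping 5.80 to 6.79%, no feature 4.01 to 5.20% and ambiguous 4.97 to 5.31% of reads. Of 55471 identifiers, 55144 matched GENCODE M21 (GRCm38) without the version and 54487 with it; for Srcin1 and Cfap74 the version differs, so their exons may differ from those counted.

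The fit to the unstranded counts used edgeR 4.0.16 (R 4.3.3, robust quasi-likelihood F-test, TMM factors 0.987 to 1.03, filterByExpr at its count limit of 10 and total limit of 15, Benjamini-Hochberg over 14918 genes, threshold 0.05). CPM use the TMM-scaled library totals. Marker sums and strand shares had exact permutation tests in scipy 1.17.1. The planned test of the ratio of strand columns to unstranded count is not used, because the counts that chose the genes make up that ratio. Neighbours were tested genes within 500 kb. Profiles were compared on log2(CPM + 0.25). On simulated data for DKO against control with 200 of 14918 genes changed 2-fold, edgeR called 64% of them with 3.76% false calls. On the same data DESeq2 called 72% with 21.3% false calls, and limma-voom 63% with 3.08%. No pair of libraries in a group agreed within sampling noise (chi-square per degree of freedom 9.7 or more). Alternatives were DESeq2 1.42.0, limma 3.58.1 voom, DESeq2 size factors, other filters, count columns and windows, a replicate block and leaving out each library. Named genes are the 10 genes, Oxct1 and Bdh1, the nearest tested gene on each side of a locus, list genes and neighbours past the threshold, Nnt, Pld3, Top1, Egfr, Erbb3, Rhpn2 and the BORC subunits, and the 5 autosomal profiles nearest Srcin1 among genes other than the 10. Other genes given with values were chosen after their values were seen. Among them are Wbp1l, Xist, Lyz2, Csf1r, Itgam, Mpeg1, Adgre1, Cd14, Tubb3, Syp and Gsto1. So are AC156982.1, Arl8a, Jag2, Gm12352, Grb7, Gm25106, Ikzf3, Stard3 and those beyond 500 kb. The members and lists were chosen with earlier results of these data known. Counting error only is covered by depth statements, since reads carry no molecular identifiers.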

Additional observations from a re-analysis of the deposited data

Results flagged for a closer look

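In 3 of 20 groups examined (10 genes, each in control and in DKO), 1 library lay farther from the others than Dixon's 95% limit allows, where chance gives about 1 group in 20. Erbb2 was at 1.92 CPM in DKO replicate 1, against 0.987 to 1.21 CPM in the other DKO libraries. Top1mt was at 3.27 CPM in DKO replicate 2, against 3.95 to 4.22 CPM in the others. Borcs7 was at 80.7 CPM in control replicate 1, the library with 16.7% unmapped reads, against 52.0 to 56.5 CPM in the other control libraries. The group ranges did not overlap for any of these genes with those libraries included.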

How the results depend on the processing

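The fitted log2 fold change of each of the 10 genes stayed below 0 under all alternatives in which it could be fitted. The genes were chosen as decreases on these counts, so that sign is a description and nothing is read from it. Fam187b had no value in the first strand column or with 1 CPM required in 4 libraries. The fitted value moved by more than the spread between replicates in 1 case, Fam187b without DKO replicate 4 (-3.51). The count of genes past the threshold, 422 (2.83%), was 1059 in DESeq2 (8.41%), 996 in limma-voom (6.68%), 67 with the replicate block, and 179 to 749 with single libraries left out. The neighbours past it, 5 of 186, were 13 in DESeq2, 12 in limma-voom, 1 with the block and 2 to 8 with single libraries left out. By window they were 2 of 97 within 250 kb (2.06%) and 8 of 301 within 1000 kb (2.66%). Among the nearest 5 tested genes on each side they were 3 of 70 (4.29%). All 3 were lower in DKO, against 1.51% lower among all tested genes. Partner genes, 1 of 46, were 3, 2 and 0 in DESeq2, limma-voom and the block, and 0 to 2 with single libraries left out. Replicate numbers did not pair the libraries: deviations of same-numbered libraries correlated at -0.117 to 0.0124, and no control library correlated best with its own number. The neuronal sum difference of 0.505 CPM became -0.129 with strand columns summed, and ran from -0.142 (without DKO replicate 5) to 1.04 with single libraries left out. The difference in first-column share, in percentage points, ran across 0 with single libraries left out for Fam187b (-10.24 to 9.76, above 0 without control replicate 1 or DKO replicate 2), Top1mt (-2.63 to 0.443, above 0 without control replicates 2 or 3 or DKO replicate 3) and Pld4 (-2.03 to 0.143, above 0 without DKO replicate 5). The cause was not tested.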

Other observations

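Beyond 500 kb, 3 more genes past the threshold lay within 1 Mb of one of the 10, chosen here after their values were seen: Top2a, given above, and a pair on chromosome 15. I830127L07Rik, 522 kb from Top1mt, was at 338.3 ± 46.1 CPM in control against 115.2 ± 18.7 CPM in DKO (edgeR adjusted p = 1.68e-04, with -1.55 as log2 fold change and 0.13 as SE), and Ly6c2, a surface antigen gene of effector and memory CD8 T cells, was at 1890.5 ± 228.7 and 1026 ± 120.3 CPM (edgeR adjusted p = 0.00218, with -0.88 as log2 fold change and 0.10 as SE). The nearer neighbours of Top1mt, given above, did not pass. Jag2, a Notch ligand gene 138.8 kb from Pld4, had a log2 fold change of -2.56 (SE 1.102) and did not pass (adjusted p = 0.282, edgeR).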
